A study of Mus musculus with 12 samples.

Results

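The uncoupling proteins Ucp1, Ucp2 and Ucp3 were followed in subcutaneous white adipose tissue (scWAT) and brown adipose tissue (BAT) of WT and Lr11-/- mice. Every probe of the 3 genes on the array was read, which gave 1 probe for Ucp1 (A_51_P426353), 1 for Ucp2 (A_51_P297105) and 2 for Ucp3 (A_66_P108247 and A_52_P380379). The 3 genes are among 20660 named genes on the array, and all 4 probes were among the 32121 tested. Lr11-/- males lack LR11, a sorting receptor encoded by Sorl1, and were compared with WT littermates on the same C57Bl6/J background. All groups received a high-fat diet (HFD) with 60% of calories from fat and were 12 weeks of age. The length of HFD feeding is open, since one label gives 4 weeks and another a start at weaning. Each tissue of each genotype was read on 3 one-colour arrays, which gave 4 groups. The sources used here do not say whether scWAT and BAT came from the same animals. The p values of the linear model (limma) use the spread between arrays within groups, as 1 estimate per probe shared by the 4 groups.

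Uncoupling proteins are carriers of the inner mitochondrial membrane. Ucp1 lets protons return to the matrix without making ATP and so releases the energy of fuel oxidation as heat. It defines thermogenic brown and beige adipocytes, and its gene answers to noradrenaline through beta-adrenergic receptors and to nuclear receptors with the coactivator PGC-1alpha. Ucp2 is found in many tissues, with high levels in cells of the immune system, and exports 4-carbon metabolites from mitochondria. Ucp3 is found mainly in skeletal muscle and brown fat and accompanies fatty acid oxidation.

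The promoters of the 3 genes are shown because the results turn on how these genes differ and the activators described further on include nuclear receptors. Each run is a RefSeq window on GRCm38.p6, 250 bases before to 50 bases from the annotated start, on the plus strand, and capitals mark AGGTCA, the half-site of nuclear receptors.
Ucp1, chr8:83290098-83290397: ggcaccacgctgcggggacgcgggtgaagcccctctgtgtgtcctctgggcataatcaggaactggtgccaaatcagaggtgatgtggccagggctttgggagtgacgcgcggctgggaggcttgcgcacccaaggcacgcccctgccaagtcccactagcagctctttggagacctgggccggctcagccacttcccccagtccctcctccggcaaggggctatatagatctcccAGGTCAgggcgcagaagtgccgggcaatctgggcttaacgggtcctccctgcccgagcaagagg
Ucp2, chr7:100493108-100493407: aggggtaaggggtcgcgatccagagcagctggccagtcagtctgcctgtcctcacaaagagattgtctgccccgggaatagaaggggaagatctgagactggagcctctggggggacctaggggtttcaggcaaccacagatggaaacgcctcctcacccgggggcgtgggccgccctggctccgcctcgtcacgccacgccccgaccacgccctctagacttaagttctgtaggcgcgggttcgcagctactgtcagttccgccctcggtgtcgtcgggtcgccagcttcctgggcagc
Ucp3, chr7:100472741-100473040: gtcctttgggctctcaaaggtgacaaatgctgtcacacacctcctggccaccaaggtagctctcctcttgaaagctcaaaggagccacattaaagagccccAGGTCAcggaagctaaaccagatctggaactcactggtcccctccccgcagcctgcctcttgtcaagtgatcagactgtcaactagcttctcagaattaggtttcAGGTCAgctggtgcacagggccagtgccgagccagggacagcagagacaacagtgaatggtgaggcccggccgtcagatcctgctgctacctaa
Both strands were searched for the TATA box TATAAA, for the CCAAT box, for the half-site AGGTCA, for the cAMP response element TGACGTCA and for a variant of this element, TGACGCAA. AGGTCA began 14 bases before the start of Ucp1 and 149 and 44 bases before that of Ucp3, and the Ucp2 window held no match to any of the 5 motifs. Over 32851 promoters of the same length, 16.3% held the half-site, 13.6% the TATA box, 37.4% the CCAAT box, 1.79% the cAMP response element and 0.49% its variant. The windows of Ucp1 and Ucp2 had 64.7% and 64.3% G and C, that of Ucp3 had 55%, and the median promoter had 52.7%. Ucp3 and Ucp2 are neighbours on chromosome 7, with starts 20367 bases apart. These matches are a description of letters in the reference, as binding was not measured.

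Some arrays stood apart in ways the groups do not explain. Values are log2 intensities relative to the 75th percentile of the array, so that 0 marks the brightness of that percentile, and levels are compared between arrays and not between probes. Transcripts of skeletal muscle (a list of 13 genes that includes the troponins Tnnt3 and Tnni2) were high on WT scWAT replicate 3, Lr11-/- scWAT replicate 1, WT BAT replicates 1 and 3 and Lr11-/- BAT replicate 1. Their mean was 5.30 to 8.33 on these 5 arrays and -3.44 to -2.59 on the other 7. WT scWAT replicate 2 had the lowest adipocyte markers, with a mean of 3.14 against 5.66 to 7.09 on the other arrays, and the highest macrophage markers, with 3.53 against 0.0061 to 1.94. Lr11-/- scWAT replicate 1 had the highest mean of 5 epithelial markers, 1.34 against -5.28 to -2.26 on the other arrays. Hoxc9, a gene of posterior body position that marks subcutaneous fat, was 1.08 to 3.02 on the scWAT arrays and not above background on any BAT array. Adipoq, which encodes adiponectin, was well above background on every array (3.84 to 8.55). Sorl1 was lower on every Lr11-/- array than on every WT array in both tissues, by -4.34 in scWAT (SE 0.42, limma, adjusted p = 0.0063) and -3.63 in BAT (SE 0.42, adjusted p = 0.0319). By the sample titles, replicate 1 of every group belongs to an earlier-numbered array series than replicates 2 and 3, called the first and the second series here.

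Ucp1 was higher in Lr11-/- than in WT scWAT, and it did not separate the genotypes in BAT. The WT scWAT arrays had log2 intensities of -4.63, -4.52 and 2.92 on replicates 1 to 3, and replicate 2 was not well above background. In Lr11-/- scWAT it was 4.39, 9.75 and 10.05. In WT BAT it was 9.45, 10.04 and 9.80, and in Lr11-/- BAT it was 9.81, 9.75 and 10.07. Every Lr11-/- scWAT array was above every WT scWAT array, and Lr11-/- scWAT replicates 2 and 3 lay at the level of BAT while replicate 1 lay between both tissues. The brightest BAT spot reached 59.8% of the scanner limit, and no spot was saturated.

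**Figure D1:**
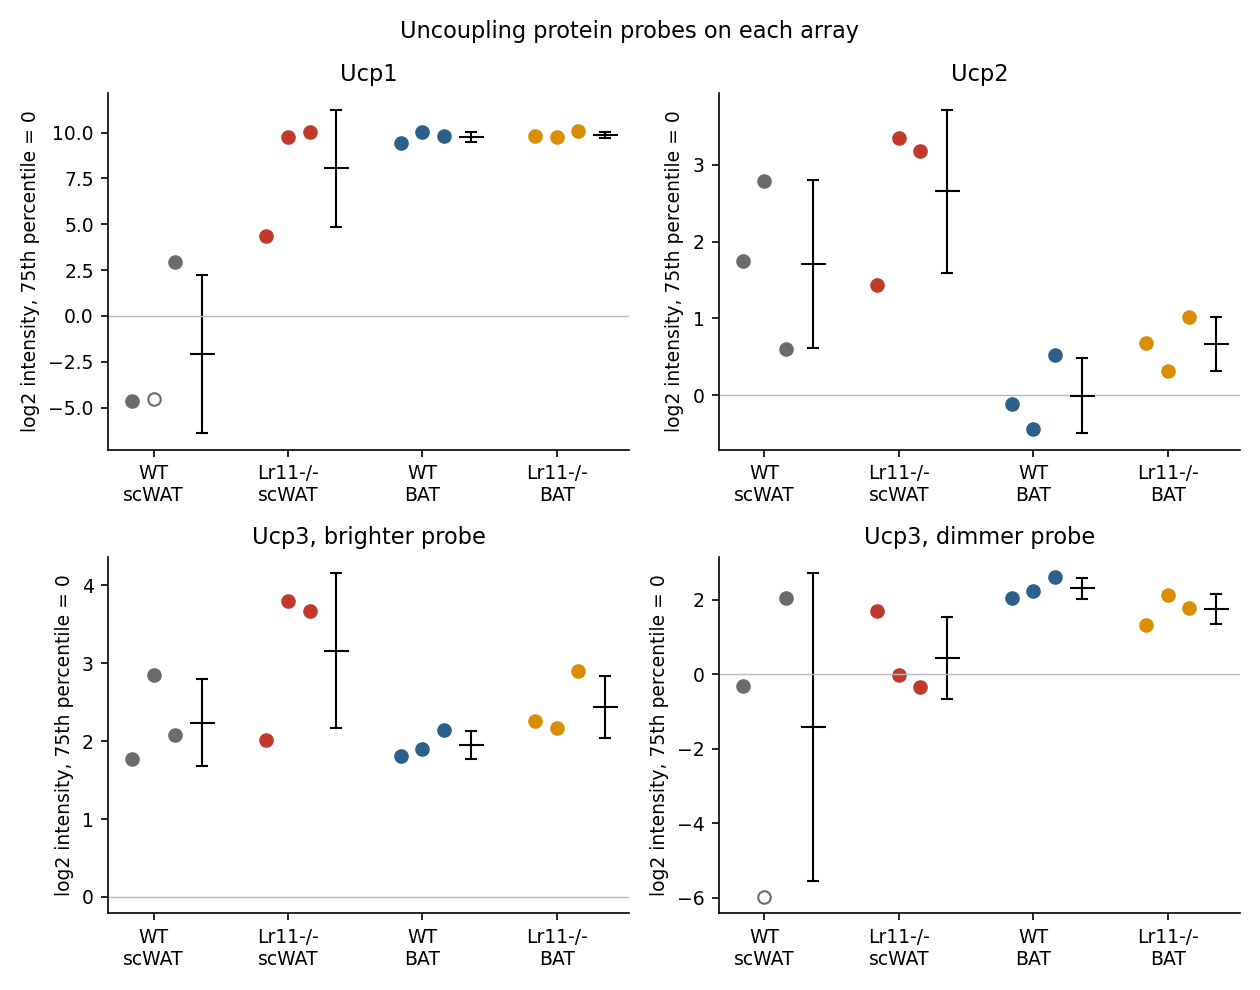
Log2 intensity relative to the 75th percentile of each array (y axis, one scale per panel) for the 4 probes of Ucp1, Ucp2 and Ucp3 in the 4 groups (x axis). Points are arrays, replicates 1 to 3 from left to right, open where the probe was not well above background, and the bar beside them is the mean ± SD (n = 3). Ucp1 spans -4.63 to 10.07, with 2 of the 3 Lr11-/- scWAT arrays at the level of BAT.

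Ucp1 averaged -2.08 ± 4.33 (SD, n = 3) over the WT scWAT arrays and 8.06 ± 3.19 (SD, n = 3) over the Lr11-/- scWAT arrays. The difference was 10.14 on the log2 scale, with 2 of the 3 WT arrays above background (SE 1.92, 95% interval 5.90 to 14.37, limma, adjusted p = 0.0326), and 5.27% of all tested probes passed this threshold (3.4% higher and 1.87% lower in Lr11-/-). From the means of the linear intensities the difference was 7.99 on the log2 scale, with no test. Ucp1 was the only one of the 3 genes to pass. The groups did not overlap for Ucp1, as for 20.4% of tested probes, and the two-sided exact permutation test gave p = 0.1, the smallest that 3 arrays against 3 allow. The difference was 9.01 in the first array series, with 1 array a group and no test, and 10.70 in the second (adjusted p = 0.0191). The call was kept in 3 of the 12 fits that left out 1 array, in which the difference ran from 8.86 to 12.64 and the adjusted p from 0.00213 to 0.155. It was lost without WT scWAT replicate 2 (8.91, adjusted p = 0.0834), without Lr11-/- scWAT replicate 2 (9.29, adjusted p = 0.146) or 3 (9.15, adjusted p = 0.155), and without any single BAT array (adjusted p from 0.0561 to 0.0618). The SE of 1.92 uses a spread shared with BAT, where the SDs were 0.30 for WT and 0.17 for Lr11-/-. With only the scWAT arrays in the fit the SE was 2.43 and the adjusted p was 0.315. Without the 5 arrays with muscle transcripts, a set chosen after seeing the data, the difference was 14.48. This choice removed the highest WT scWAT array (2.92) and the lowest Lr11-/- scWAT array (4.39), so a larger difference was fixed by it. What remained was a fit with 1 WT BAT array and 2 arrays of each other group. That fit assumes that the lone WT BAT array varies like the other groups. In tissue RNA, a change in the number of cells of a type and a change in RNA per cell cannot be told apart.

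In BAT, Ucp1 averaged 9.76 ± 0.30 (SD, n = 3) for WT, against 9.88 ± 0.17 (SD, n = 3) for Lr11-/-. The difference was 0.11 (95% interval -4.12 to 4.35, limma, adjusted p = 1, where 0.0187% of tested probes passed). The two-sided exact permutation test gave p = 0.6. That interval uses the spread shared with scWAT, and the 6 BAT arrays themselves lay between 9.45 and 10.07. The genotype difference was larger in scWAT than in BAT by 10.02 (SE 2.71, 95% interval 4.03 to 16.01, unadjusted p = 0.00372 from limma), but the adjusted p was 0.382 and 0% of tested probes passed, while 3537 probes had an unadjusted p under 0.05. The adjusted p of this interaction was under 0.05 without WT scWAT replicate 3 (12.52, adjusted p = 0.0254) and without Lr11-/- scWAT replicate 1 (11.86, adjusted p = 0.0331). These are the highest WT and the lowest Lr11-/- scWAT arrays for Ucp1. Without the 5 arrays with muscle transcripts, which include both, the interaction was 14.60, with 1 WT BAT array.

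Between tissues of WT mice, Ucp1 was higher in BAT by 11.84 (SE 1.92, 95% interval 7.60 to 16.07, limma, adjusted p = 0.00428), and 24.8% of tested probes passed (15.7% higher and 9.13% lower in BAT). The groups did not overlap, as for 40.2% of tested probes. The call held in all 12 fits that left out 1 array, with adjusted p from 0.000526 to 0.0233. Between tissues of Lr11-/- mice the difference was 1.81 (95% interval -2.42 to 6.05, adjusted p = 0.789, where 0.0405% of tested probes passed), and the groups overlapped. WT BAT and Lr11-/- scWAT, which are next to each other in the order of the Ucp1 means, differed by 1.70 (95% interval -2.54 to 5.93, adjusted p = 0.888, where 0.0965% passed) and overlapped as well. From low to high the order was WT scWAT and Lr11-/- scWAT, then WT BAT, then Lr11-/- BAT, and only the first step exceeded the spread. Ucp1 ranged over 14.70 log2 units across the 12 arrays, a range that 0.00623% of tested probes exceeded and for which the median probe had 1.74.

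**Figure D2:**
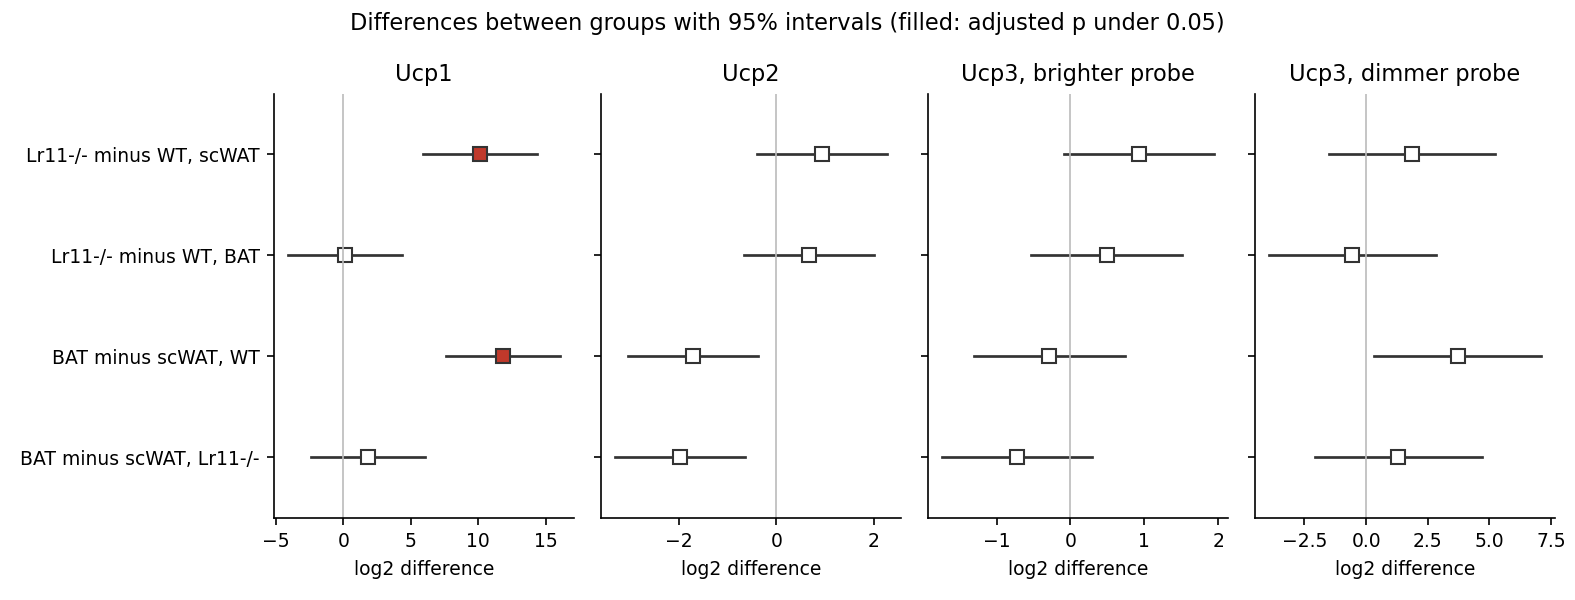
Differences between groups on the log2 scale (x axis, one scale per panel) with 95% intervals from limma, for the genotype in each tissue and the tissue in each genotype (y axis). Squares are filled where the adjusted p was under 0.05, which holds for Ucp1 between genotypes in scWAT (10.14) and between tissues in WT (11.84).

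The genes that follow Ucp1 from array to array were those with the highest Pearson correlation among 14702 named genes. Over the 12 arrays these were Chchd10, a mitochondrial intermembrane protein (r = 0.99), Dis3l, an exosome ribonuclease (r = 0.99), Atp5e, a subunit of ATP synthase (r = 0.99), Uqcrb, a subunit of respiratory complex III (r = 0.99), and Chrnb2, a nicotinic receptor subunit (r = 0.99). With the mean of each group subtracted they included Rabl6 (r = 0.98), Fastk (r = 0.98), Acss1, a mitochondrial acetyl-CoA synthetase (r = 0.98), and Atg4d, an autophagy protease (r = 0.98). The 12 points share tissue, array series and make-up of the tissue, so these values describe the arrays.

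All gene lists used here were chosen with earlier results of these data known, so their counts beside the share of all probes are no test of the lists. Of 23 activators of Ucp1 transcription, 5 rose in Lr11-/- scWAT and 0 fell, where 3.4% of all tested probes were higher and 1.87% lower. The median difference was 1.24, against 0.04 for all tested probes. They were Adrb3, the beta-adrenergic receptor of adipocytes (4.89, SE 1.11, adjusted p = 0.0422), Ppara, a receptor for fatty acids (4.77, SE 1.22, adjusted p = 0.0498), Ppargc1a, which encodes PGC-1alpha (4.50, SE 0.91, adjusted p = 0.037), Adrb1, a beta-adrenergic receptor (2.96, SE 0.73, adjusted p = 0.0464), and Ebf2, a factor of brown adipocyte identity (1.54, SE 0.28, adjusted p = 0.0297), the fifth to pass and named after its value was seen. The mean was higher in Lr11-/- for 22 of the 23, and the groups overlapped for Ppara. Ppargc1a was -1.66, -2.90 and 0.32 on the WT scWAT arrays, against 0.98, 4.49 and 3.79 on those of Lr11-/- scWAT. It lay between 2.84 and 5.36 in BAT, so that Lr11-/- scWAT replicates 2 and 3 were again at the level of BAT and replicate 1 was below it. Adrb3 was 2.92, -1.91 and 3.60 on the WT scWAT arrays. It was 6.08, 6.53 and 6.65 in Lr11-/- scWAT, against 5.89 to 7.12 in BAT. For this gene all Lr11-/- scWAT arrays lay within the range of BAT.

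None of the 9 repressors of Ucp1 passed in scWAT (limma, 3 at an unadjusted p under 0.05, against 27.6% of all tested probes). Their median difference was -0.22. The largest differences were those of Nr1d1, the clock repressor Rev-erbalpha (-1.31, adjusted p = 0.197), Nr1h3, the oxysterol receptor LXRalpha (1.0, adjusted p = 0.12), and Trpv4, an ion channel (-0.90, adjusted p = 0.0659). Between WT tissues 17 of the 23 activators were higher in BAT and 0 lower, against 15.7% and 9.13% of all tested probes, while 1 of the 9 repressors, Trpv4, was lower (-2.04, adjusted p = 0.00245). In BAT between genotypes 0 of the 23 activators and 0 of the 9 repressors passed, where 0.0187% of all tested probes did. At an unadjusted p under 0.05 (limma) were 0 and 1, against 2.12% of all tested probes.

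Of 12 other markers of brown adipocytes, 3 rose in Lr11-/- scWAT and 0 fell (3.4% and 1.87% of all tested probes), with a median difference of 4.73. They were Cidea, a lipid droplet protein (8.70, SE 1.92, adjusted p = 0.0405), Cox7a1, a subunit of cytochrome c oxidase (5.70, SE 1.19, adjusted p = 0.0385), and Letmd1, a mitochondrial membrane protein (3.57, SE 0.84, adjusted p = 0.0441). Cidea was 1.27, -5.31 (not well above background) and 4.34 on the WT scWAT arrays, against 6.31, 10.04 and 10.06 in Lr11-/- scWAT, with replicate 1 the lowest of its group as for Ucp1. Fabp3, a fatty acid binding protein also made in muscle, had a difference of 6.55 and did not pass (adjusted p = 0.0775). The mean was higher in Lr11-/- for 9 of the 12 and lower for Lhx8 (-2.67, adjusted p = 0.137), Zic1 (-1.65, adjusted p = 0.543) and Epsti1 (-0.92, adjusted p = 0.399), of which Lhx8 and Epsti1 were named after their values were seen. Zic1, a marker of classical brown fat, was -3.79, -3.79 and -3.00 in Lr11-/- scWAT and -0.71 to 1.49 in BAT. It was -6.86 (not well above background), 0.76 and 0.46 in WT scWAT, so its WT scWAT replicates 2 and 3 lay within the range of BAT. On the same Lr11-/- scWAT arrays with Ucp1 at the level of BAT, Hoxc9 was 2.36 and 2.13. None of the 9 tested beige markers passed in scWAT (limma, 1 at an unadjusted p under 0.05, against 27.6% of all tested probes). The mean was higher in Lr11-/- for 7 of the 9, with a median difference of 0.71, against 0.04 for all tested probes. Tbx1, the largest, differed by 2.89 (limma, adjusted p = 0.305), and its groups overlapped. Between WT tissues 8 of the 12 brown markers were higher in BAT and 0 lower (15.7% and 9.13% of all tested probes).

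**Figure D3:**
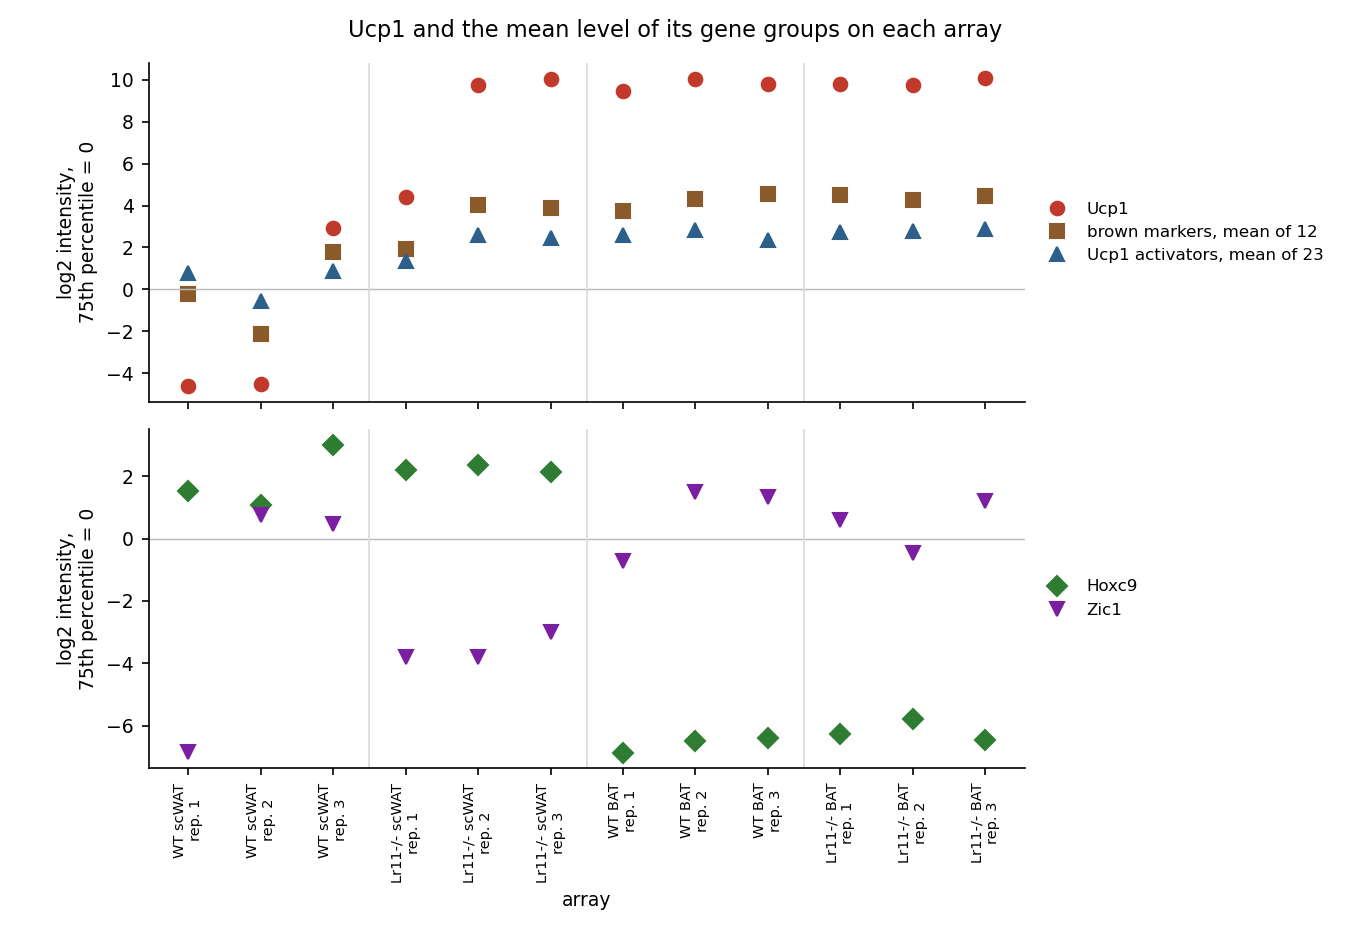
Upper panel: log2 intensity of Ucp1 and the mean log2 intensity of 12 brown markers and 23 activators of Ucp1 on each of the 12 arrays (x axis). Lower panel: Hoxc9 and Zic1 on the same arrays. All values are relative to the 75th percentile of the array. Ucp1, the brown markers and the activators are at the level of BAT on Lr11-/- scWAT replicates 2 and 3, where Hoxc9 is at 2.36 and 2.13.

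The counts of these lists moved with the arrays in the fit. All lists together held 15 genes that passed in scWAT, 0 to 46 when 1 array was left out and 48 when the second array series was fitted alone. The activators that rose numbered 7 without the 5 arrays with muscle transcripts, 14 in the second array series by itself, and 0 to 14 over all alternatives. For the brown markers these numbers were 6, 5 and 0 to 8, with 2 that fell in the second series. Beyond these fits, which include 1 without WT scWAT replicate 2, the part of the muscle transcripts and of that array in these counts was not tested.

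Of 7 genes of lipolysis, which frees the fatty acids that fuel and activate Ucp1, 0 passed in scWAT. At an unadjusted p under 0.05 in limma were 6 of them, against 27.6% of all tested probes. The mean was higher in Lr11-/- for all 7. Plin5, a droplet protein of oxidative tissues, differed by 3.68 (adjusted p = 0.0803), and Pnpla2, which encodes the lipase ATGL, by 2.10 (adjusted p = 0.0734). Between WT tissues 4 of the 7 were higher in BAT, against 15.7% of all tested probes. Of 7 tested other mitochondrial carriers, 0 passed in scWAT (limma, 2 at an unadjusted p under 0.05, against 27.6% of all tested probes). The largest differences were those of Slc25a5, an adenine nucleotide carrier (1.40, adjusted p = 0.147), and Slc25a11, the oxoglutarate carrier (1.13, adjusted p = 0.0659).

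Ucp2 had higher means in scWAT than in BAT in both genotypes, without passing the threshold, and its genotype differences did not pass either. The log2 intensity of Ucp2 on the WT scWAT arrays was 1.75, 2.79 and 0.60, against 1.43, 3.35 and 3.18 on the Lr11-/- scWAT arrays. In WT BAT it was -0.11, -0.44 and 0.53, and in Lr11-/- BAT it was 0.68, 0.31 and 1.02. Every scWAT array was above every BAT array of its genotype, and between WT tissues 40.2% of tested probes did not overlap. The genotypes overlapped in each tissue.

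Between WT tissues Ucp2 differed by -1.72, BAT minus scWAT (SE 0.60, 95% interval -3.05 to -0.38, limma, adjusted p = 0.0598). Between Lr11-/- tissues it differed by -1.98 (SE 0.60, 95% interval -3.32 to -0.65, adjusted p = 0.389), where 23.2% of tested probes did not overlap. WT BAT and Lr11-/- scWAT were the ends of its order and differed by -2.66 (SE 0.60, 95% interval -3.99 to -1.33, adjusted p = 0.185), where 18.9% of tested probes did not overlap. None of the 3 passed, and each two-sided exact permutation test gave p = 0.1. The WT difference passed under quantile normalization (-1.82, adjusted p = 0.0481) and without scaling (-2.03, adjusted p = 0.0172), where the median over all tested probes was -0.25 in place of 0.07. It also passed without WT scWAT replicate 3 (-2.27, adjusted p = 0.0192) and without Lr11-/- scWAT replicate 1 (-1.72, adjusted p = 0.0276), 2 of the 5 arrays with muscle transcripts. Without WT scWAT replicate 2 it was -1.18 (adjusted p = 0.189).

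In scWAT, Ucp2 averaged 1.71 ± 1.10 (SD, n = 3) for WT, against 2.65 ± 1.06 (SD, n = 3) for Lr11-/-. The difference of 0.94 did not pass (SE 0.60, 95% interval -0.39 to 2.28, limma, adjusted p = 0.335). In BAT it averaged -0.0064 ± 0.49 (SD, n = 3) for WT, against 0.67 ± 0.35 (SD, n = 3) for Lr11-/-, a difference of 0.68 (95% interval -0.65 to 2.01, adjusted p = 1). The genotype differences in both tissues were 0.27 apart (95% interval -1.62 to 2.15, adjusted p = 0.927). In the first array series, with 1 array a group, the scWAT difference was -0.32, and in the second it was 1.57 (adjusted p = 0.165). From low to high the order was WT BAT, Lr11-/- BAT, WT scWAT and Lr11-/- scWAT, and neighbouring groups overlapped.

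Ucp2 is abundant in macrophages, and their markers also differed between tissues. The macrophage list (11 genes on the array) had a summed level, in units of the 75th percentile, of 112 to 411 in WT scWAT, 87.4 to 99.9 in Lr11-/- scWAT, 51.4 to 78.2 in WT BAT and 53.7 to 66.4 in Lr11-/- BAT. Of its genes 5 were lower in BAT than in scWAT of WT mice and 0 higher, against 9.13% of all tested probes lower. They were Cd163, a scavenger receptor (-2.45, adjusted p = 0.0151), Ccr2, a chemokine receptor (-2.10, adjusted p = 0.0286), Mrc1, the mannose receptor (-2.09, adjusted p = 0.0127), Adgre1, an adhesion receptor of macrophages (-1.81, adjusted p = 0.0413), and Csf1r, the receptor of macrophage colony-stimulating factor (-1.57, adjusted p = 0.0204). Cd163 was not well above background on any WT BAT array. WT scWAT replicate 2, with the highest macrophage mean, had the highest Ucp2 value of WT scWAT (2.79). Between genotypes in scWAT the mean was lower in Lr11-/- for all 11 macrophage genes while that of Ucp2 was higher. Of the 11, 0 passed (limma, 1 at an unadjusted p under 0.05, against 27.6% of all tested probes). Lyz2, lysozyme of myeloid cells, had the largest difference (-1.72, adjusted p = 0.195). None of 9 adipocyte, 7 lymphocyte, 5 endothelial and 2 epithelial markers passed there either. At an unadjusted p under 0.05 (limma) were 4, 3, 1 and 0, against 27.6% of all tested probes. The part of macrophages in the Ucp2 values was not tested.

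**Figure D4:**
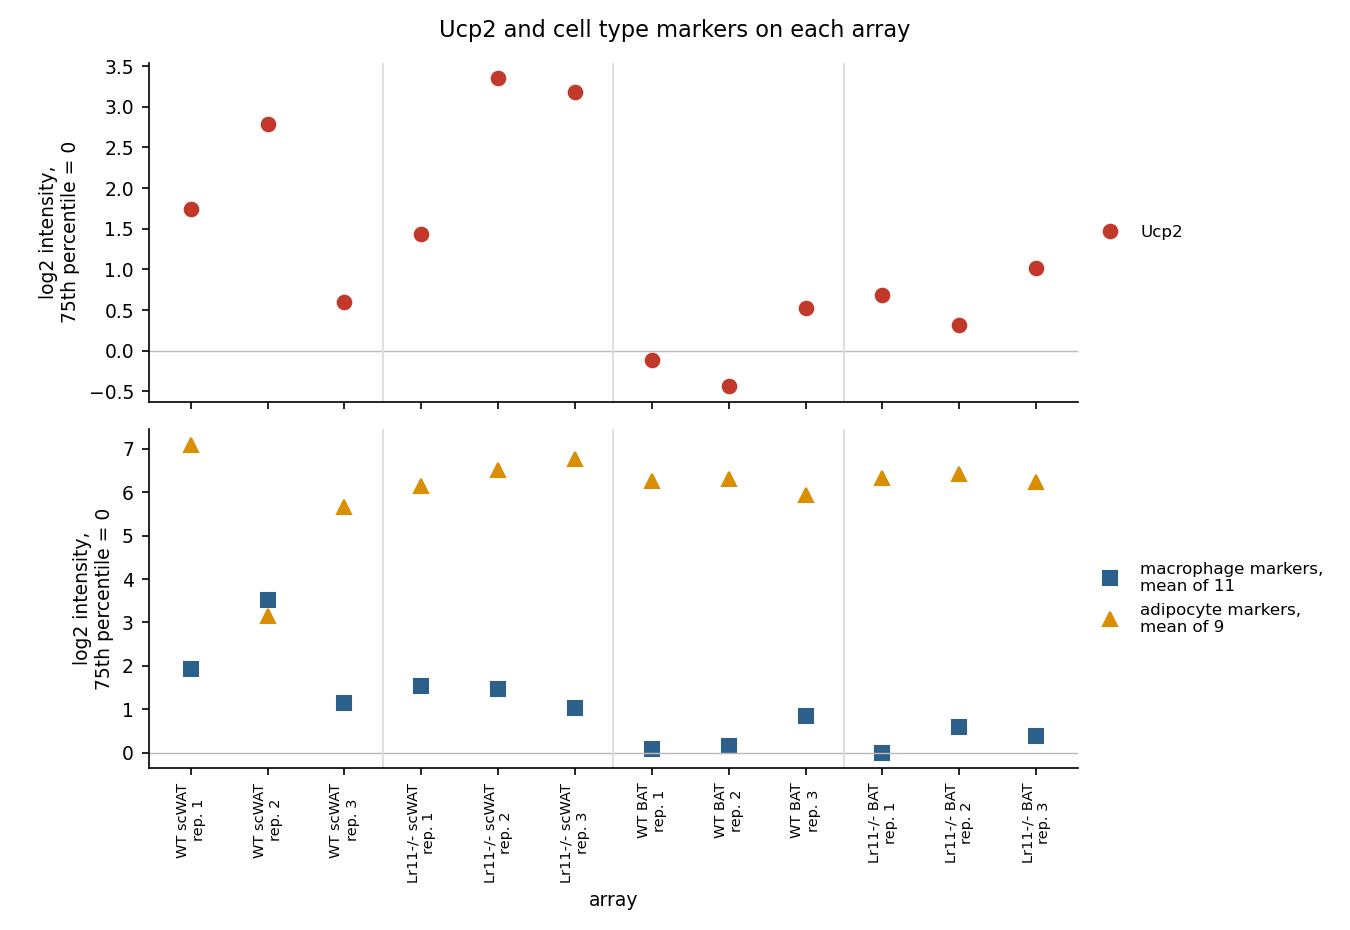
Log2 intensity of Ucp2 (upper panel) and mean log2 intensity of 11 macrophage and 9 adipocyte markers (lower panel) on each array (x axis), relative to the 75th percentile of the array. Ucp2 is 0.60 to 3.35 on the scWAT arrays and -0.44 to 1.02 on the BAT arrays, and WT scWAT replicate 2 has macrophage and adipocyte means of 3.53 and 3.14.

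Over the 12 arrays the genes most like Ucp2 were Rps6ka1, a kinase below ERK (r = 0.96), Mthfd2, a mitochondrial folate enzyme (r = 0.95), Trim6 (r = 0.94), Mcoln1, a lysosomal channel (r = 0.92), and Dynlt1c, a dynein light chain (r = 0.91). With the group means subtracted they were Tmem214 (r = 0.97), Klra16 (r = 0.96), Usp17ld (r = 0.95), Pds5a, a cohesin factor (r = 0.94), and 2810021J22Rik (r = 0.94). Ucp2 and Ucp1 had r = -0.32 over the 12 arrays, which share tissue and array series.

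Of 9 antioxidant genes of mitochondria, which handle the reactive oxygen that Ucp2 and Ucp3 are thought to limit, 1 rose in Lr11-/- scWAT and 0 fell (3.4% and 1.87% of all tested probes). It was Prdx3, a mitochondrial peroxiredoxin (2.12, SE 0.44, adjusted p = 0.038). Txnrd2, a mitochondrial thioredoxin reductase (2.08, adjusted p = 0.0676), Gpx4, a lipid peroxidase (1.51, adjusted p = 0.0674), and Txn2, mitochondrial thioredoxin (1.50, adjusted p = 0.0535), did not pass. Between WT tissues 5 of the 9 were higher in BAT and 0 lower (15.7% and 9.13% of all tested probes).

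Ucp3 gave different patterns on its 2 probes. The brighter probe, A_66_P108247, was 1.77, 2.85 and 2.07 in WT scWAT, 2.01, 3.80 and 3.67 in Lr11-/- scWAT, 1.81, 1.89 and 2.15 in WT BAT, and 2.25, 2.16 and 2.90 in Lr11-/- BAT. It was highest on Lr11-/- scWAT replicates 2 and 3, and in each genotype the scWAT and BAT arrays overlapped. The dimmer probe, A_52_P380379, was -0.31, -5.97 and 2.04 in WT scWAT, 1.70, -0.0177 and -0.35 in Lr11-/- scWAT, 2.05, 2.24 and 2.61 in WT BAT, and 1.32, 2.12 and 1.77 in Lr11-/- BAT. Its highest values were in WT BAT, its WT scWAT replicate 2 was not well above background, and the probe was low on the Lr11-/- scWAT arrays on which the brighter probe was highest.

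The brighter probe averaged 2.23 ± 0.56 (SD, n = 3) for WT scWAT, against 3.16 ± 0.996 (SD, n = 3) for Lr11-/- scWAT, a difference of 0.93 (SE 0.46, 95% interval -0.09 to 1.94, limma, adjusted p = 0.219). It passed without Lr11-/- scWAT replicate 1 (1.50, adjusted p = 0.0151). In BAT it averaged 1.95 ± 0.18 (SD, n = 3) for WT, against 2.44 ± 0.40 (SD, n = 3) for Lr11-/-, a difference of 0.49 (SE 0.46, 95% interval -0.53 to 1.50, adjusted p = 1). Every Lr11-/- BAT array was above every WT BAT array, 2.16 against 2.15 at the nearest pair, and 12% of tested probes did not overlap there. The differences in both tissues were 0.44 apart (95% interval -0.999 to 1.88, adjusted p = 0.822). BAT minus scWAT was -0.28 in WT (95% interval -1.30 to 0.73, adjusted p = 0.675) and -0.72 in Lr11-/- (95% interval -1.74 to 0.29, adjusted p = 0.669). WT BAT, the lowest group, and Lr11-/- scWAT, the highest, differed by -1.21 (95% interval -2.23 to -0.19, adjusted p = 0.516), so no step in the order passed.

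On the dimmer probe the genotype difference in scWAT was 1.86 (SE 1.53, 95% interval -1.53 to 5.24, limma, adjusted p = 0.458) and that in BAT -0.56 (95% interval -3.94 to 2.82, adjusted p = 1). The scWAT difference changed sign without WT scWAT replicate 2 (-0.42, limma, adjusted p = 0.785). Without WT scWAT replicate 3 it was 3.58 (adjusted p = 0.0926). BAT minus scWAT was 3.71 in WT (SE 1.53, 95% interval 0.33 to 7.09, adjusted p = 0.0971), without overlap as for 40.2% of tested probes, and 1.29 in Lr11-/- (95% interval -2.09 to 4.68, adjusted p = 0.809). The tissue difference in WT thus had the opposite sign on the probes of 1 gene, and neither passed. It was 1.43 on the dimmer probe without WT scWAT replicate 2 (adjusted p = 0.193) and 5.44 without replicate 3 (adjusted p = 0.0148). The difference between both probes changed by 4.00 from WT scWAT to WT BAT, without overlap of the arrays (two-sided exact permutation test, p = 0.1). Over the 12 arrays the probes had r = -0.42 with each other. The brighter probe had r = 0.81 with Ucp2 and 0.21 with Ucp1, and the dimmer probe had -0.69 and 0.67. The mean of both probes reversed the sign of the tissue difference in WT (1.71, adjusted p = 0.0867). Which transcript each probe reads was not tested.

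**Figure D5:**
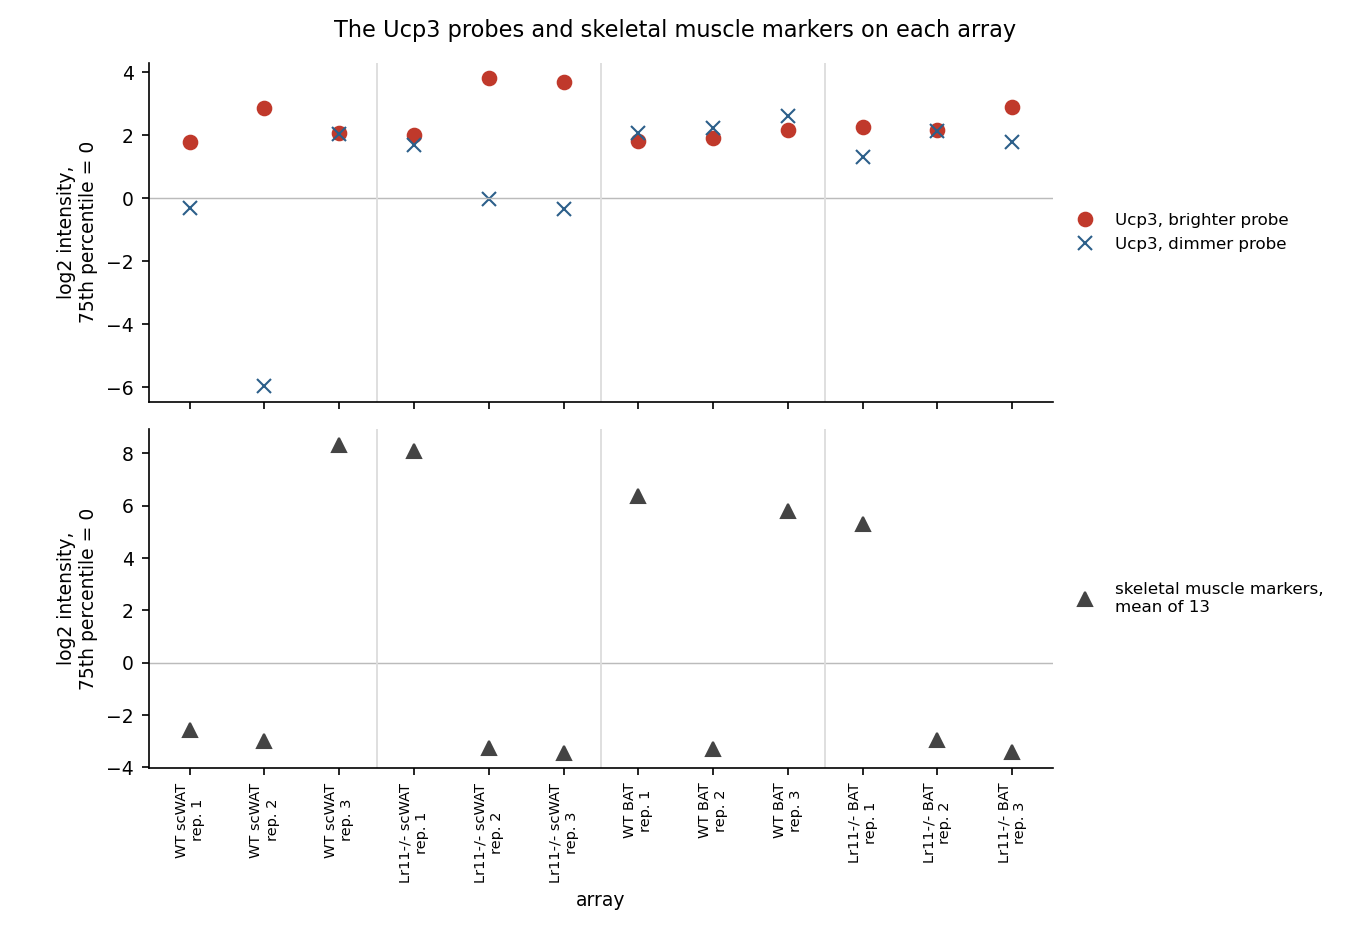
Log2 intensity of the brighter and the dimmer Ucp3 probe (upper panel) and the mean log2 intensity of 13 skeletal muscle markers (lower panel) on each array (x axis), relative to the 75th percentile of the array. Within scWAT the dimmer probe is highest on WT replicate 3 (2.04) and Lr11-/- replicate 1 (1.70), the arrays with muscle means of 8.33 and 8.07.

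Muscle transcripts moved with the dimmer Ucp3 probe in scWAT. The scWAT arrays with high muscle markers, WT replicate 3 and Lr11-/- replicate 1, had 2.04 and 1.70 on this probe, and the other 4 scWAT arrays had -5.97 to -0.0177. In BAT the probe was 1.32 to 2.61 on the 3 BAT arrays with muscle transcripts and 1.77 to 2.24 on the others, which overlapped. On the same scale the summed muscle level was 4.76 to 6471 in WT scWAT, 30.7 to 5721 in Lr11-/- scWAT, 36.7 to 2027 in WT BAT and 32.7 to 1136 in Lr11-/- BAT. Between 6 and 13 of the 13 muscle genes were well above background on an array. Without the 5 arrays with muscle transcripts the WT tissue difference of the dimmer probe was 5.38 (SE 2.19, adjusted p = 0.182, with 1 WT BAT array), and the scWAT genotype difference of the brighter probe was 1.42 (adjusted p = 0.107). The highest values of the brighter probe were on Lr11-/- scWAT replicates 2 and 3, where the muscle means were -3.28 and -3.44. The part of muscle in the Ucp3 values was otherwise not tested.

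Of 10 genes of fatty acid oxidation that accompany Ucp3, 6 rose in Lr11-/- scWAT and 0 fell (3.4% and 1.87% of all tested probes), with a median difference of 3.12. The 4 largest of them were Acot2, a mitochondrial thioesterase that releases fatty acids from CoA (3.75, SE 0.76, adjusted p = 0.0372), Hadhb (3.37, SE 0.72, adjusted p = 0.0393) and Hadha (3.10, SE 0.63, adjusted p = 0.037), the subunits of the trifunctional protein, and Acadvl, the dehydrogenase of very long chains (3.14, SE 0.64, adjusted p = 0.0373). Hadha was 1.72, 0.24 and 1.76 on the WT scWAT arrays, against 2.65, 5.15 and 5.23 in Lr11-/- scWAT. Against 5.18 to 5.65 in BAT, Lr11-/- scWAT replicates 2 and 3 were near BAT and replicate 1 was nearer to WT scWAT. Between WT tissues 8 of the 10 were higher in BAT and 0 lower (15.7% and 9.13% of all tested probes). In BAT between genotypes 0 of the 10 passed, where 0.0187% of all tested probes did (limma, 0 at an unadjusted p under 0.05, against 2.12%). The number that rose in scWAT was 8 without the 5 arrays with muscle transcripts and 0 to 8 over all alternatives.

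The genes most like the brighter Ucp3 probe over the 12 arrays were Cpeb4, a translation regulator (r = 0.91), Gtf2h1, a subunit of TFIIH (r = 0.91), Olfr951, an olfactory receptor (r = 0.90), Gramd1b, a sterol transporter (r = 0.89), and Clec2d, a lectin (r = 0.88). With the group means subtracted they were Zswim3 (r = 0.97), Ppp4r3b (r = 0.97), Bri3bp (r = 0.97), Vmn1r25, a pheromone receptor (r = 0.96), and Sestd1 (r = 0.96). Those most like the dimmer probe included Zbtb20, a transcription repressor (r = 0.97), Gys1, glycogen synthase of muscle (r = 0.97), and Pm20d2 (r = 0.96). With the group means subtracted they were Bcam (r = 0.99), Etl4 (r = 0.99), Fbp2, a fructose bisphosphatase of muscle (r = 0.98), Ndrg2 (r = 0.98), and Pgm1, phosphoglucomutase (r = 0.98). The dimmer probe ranged over 8.02 in WT scWAT, where replicate 2 was not well above background, and over 0.55 to 2.05 in the other groups. The values with group means subtracted thus rest mostly on the WT scWAT arrays. The top 5 genes of both probes had no gene in common.

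None of the tested neighbours of the 3 genes passed between genotypes in scWAT. Tbc1d9 and Elmod2, on either side of Ucp1, differed by -0.10 (95% interval -2.31 to 2.10, limma, adjusted p = 0.96) and 0.23 (95% interval -0.67 to 1.13, adjusted p = 0.741). C2cd3, which lies before Ucp3, differed by 0.50 (95% interval 0.03 to 0.98, adjusted p = 0.157). Dnajb13, on the other side of the Ucp2 and Ucp3 pair, was not among the tested probes. The range over the 12 arrays was 3.79 for Ucp2, which 12.8% of tested probes exceeded, 2.02 for the brighter Ucp3 probe, which 40.9% exceeded, and 8.58 for the dimmer, which 0.62% exceeded.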

How the data were processed

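RNA of 12 samples (4 groups of 3) was hybridised to one-colour Agilent arrays. The deposited intensity values are the processed signals of Feature Extraction 10.10, per the file headers with background subtracted and spatial trend removed. The deposited table of the whole series held the same values (largest difference 0). The scanner's flags, another deposited measure, mark spots as outliers (128 to 181 an array, left out) or well above background (32377 to 37002 an array), and 0 were saturated. Signals were put on the log2 scale and the 75th percentile of each array (374 to 632) was subtracted. Spots of 1 probe were averaged, and 32121 of 55681 probes, those flagged as above background by every array (3 of 3) in 1 group or more, were fitted with limma 3.58.1 in R 4.3.3 (1 mean per group, lmFit and eBayes), with Benjamini-Hochberg adjustment over these probes and a threshold of 0.05. A gene was read from its tested probe with the highest mean over the 12 arrays. The 3 members and 14 gene lists were chosen with earlier results of these data known.

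Per list, up to 4 genes were named, those past the threshold with the largest difference in scWAT or else the largest differences, and per member the 5 genes of highest correlation, of which 3 are not reported here. Symbols came from the RefSeq gene table through accessions (27235 of 28685 probes with one). Tested on simulated data for the scWAT genotype comparison (32121 probes, 200 changed), the fit recovered 11.9% of changes of 1, 61.2% of 2 and 84.8% of 4 on the log2 scale. The simulated probes were drawn independently of each other, with a spread averaged over the 4 groups. In the data the arrays shared shifts such as that of muscle transcripts, and Ucp1 varied more in scWAT than in BAT. These shares therefore need not hold for the real scWAT comparison. Alternatives changed the background correction, scaling, probe filter, outlier spots, batch, array weights, variance estimation, arrays in the fit and probe rule, and left out each array in turn. The alternative without the 5 arrays with muscle transcripts was chosen after seeing the data. The number of arrays limits the precision.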

Additional observations from a re-analysis of the deposited data

How the results depend on the processing

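Of 562 values recomputed under the alternatives, 488 kept their direction and their side of the threshold or stayed within the spread. Counts of listed genes, which are among these values, were taken as kept where they stayed near the main count. The call of Ucp1 between genotypes in scWAT was lost in 11 of its 28 alternatives. No paired analysis was possible because the labels give no replicate numbers, and those used here only follow accession order. With the array series as a block no result changed its side of the threshold, and the scWAT difference of Ucp1 had an adjusted p of 0.0314 (limma). Ucp1 has no value where only probes above background on all 12 arrays were kept. Between genotypes in scWAT, the adjusted p of Ucp1 (10.14, limma) rose to 0.0623 with no filter on dim probes and to 0.315 with only the groups compared in the fit. Ucp2 between WT tissues was -1.82 with quantile normalization and -2.03 without scaling, both past the threshold. With array weights the following passed: Ucp3 between genotypes in scWAT (1.59), the interaction of Ucp1 (11.41), Ucp2 and Ucp3 between Lr11-/- tissues (-2.60 and -1.25) and from Lr11-/- scWAT to WT BAT (-3.41 and -1.82). These Ucp3 values are of the brighter probe. On the dimmer probe both Ucp3 tissue differences passed with the opposite sign (1.85, limma, adjusted p = 0.0307, and 2.30, adjusted p = 0.0186). Its scWAT genotype difference was 0.83 and did not pass (adjusted p = 0.655). The mean of both Ucp3 probes reversed the genotype difference in BAT (-0.0367), the tissue differences in WT (1.71) and Lr11-/- (0.29) and WT BAT minus Lr11-/- scWAT (0.32). Ucp1 between genotypes in BAT was -0.0086 in the second array series and -0.13 without the 5 arrays with muscle transcripts. Without those arrays, which leaves 1 WT BAT array whose spread is taken from the other groups, the interaction was 14.60 for Ucp1 and -0.10 for Ucp2. In the first array series, with no test and Ucp3 read from the brighter probe, the scWAT genotype difference was -0.32 for Ucp2 and 0.24 for Ucp3. The interactions were -1.11 and -0.20. The Lr11-/- tissue differences there were 5.42, -0.75 and 0.24 for Ucp1, Ucp2 and Ucp3, and WT BAT minus Lr11-/- scWAT was 5.06, -1.54 and -0.20. In the first series scWAT and BAT were on different slides, so slide and tissue cannot be told apart there. The arrays of the second series shared a slide. From linear group means Ucp1 between WT tissues was 8.43.

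When 1 array was left out, Ucp1 ran from 8.86 to 12.64 between genotypes in scWAT, -0.0428 to 0.25 in BAT, 8.75 to 12.52 for the interaction, -0.0236 to 2.81 between Lr11-/- tissues and -0.14 to 2.69 for WT BAT minus Lr11-/- scWAT. Ucp2 ran from -0.29 to 0.88 for the interaction and -2.27 to -1.18 between WT tissues. The brighter Ucp3 probe ran from 0.61 to 1.50 between genotypes in scWAT and -0.51 to 0.0266 between WT tissues. The dimmer Ucp3 probe ran from -0.42 to 3.58 between genotypes in scWAT and 1.43 to 5.44 between WT tissues. The listed genes that passed between genotypes in scWAT numbered 15, 0 to 46 with 1 array left out, 8 without scaling, 0 with no filter, 9 with slide as a block, 48 in the second series, 43 with array weights, 0 with only the groups compared and 33 without the muscle arrays. Between WT tissues they numbered 54, 25 to 60 with 1 array left out, 26 with slide as a block, 28 with only the groups compared and 28 without the muscle arrays, again with 1 WT BAT array. The causes were not tested. Scaling by the median moved the median scWAT genotype difference over all probes from 0.04 to 0.17, and no scaling moved it to -0.20.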
